A study of Homo sapiens with 6 samples.

Results

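The genes described here make up the replication machinery that works beside and behind the MCM helicase: the replication fork and sliding clamp, the DNA polymerases and primase, the enzymes that supply deoxynucleotides, and the factors that rebuild chromatin and copy DNA methylation. The list held 33 named genes, put together by function but with earlier results of these data known. An identifier in the count files could be matched for 32 of them, out of 57820 genes listed per library. UHRF1, which recruits the maintenance DNA methyltransferase to new DNA, had no matched identifier and is not analysed here. All 32 matched genes passed the low-count filter.

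RNA was sequenced from C4-2B-ENZR cells, an enzalutamide-resistant derivative of a human prostate cancer line; enzalutamide blocks the androgen receptor. Of 6 libraries, 3 came from cells transfected with an siRNA against RUVBL1 and 3 from the same line transfected with a negative-control siRNA, so both groups share the cell line, its drug resistance and the transfection. RUVBL1 is an AAA+ ATPase of chromatin-remodelling and protein-assembly complexes. The sources used here give neither the siRNA sequences nor the time after transfection. Whether replicates came from separate cultures is also unstated, and the p-values therefore reflect only how far these libraries scatter.

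During S phase the MCM helicase opens DNA together with the GINS complex. Primase and polymerase alpha lay down primers, the RFC complex loads the PCNA ring, and polymerases delta and epsilon extend the strands, after which flap removal and ligation join the fragments. Deoxynucleotides come from ribonucleotide reductase and the thymidylate enzymes, and CAF-1 places histones on the new DNA. Many of these genes are known targets of the E2F transcription factors and are transcribed most around the entry into S phase. In a bulk culture, fewer cells in S phase and less RNA of a gene per cell cannot be told apart.

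Library totals ran from 18985542 to 25697804 estimated counts with RUVBL1 siRNA and from 24720504 to 36054489 with control siRNA. RUVBL1 itself had 2725, 2618 and 2709.7 normalized counts with RUVBL1 siRNA and 4681, 4654 and 4758 with control siRNA, which is 57.1% ± 1.23 (SD, n = 3) of its control level. Normalized counts are counts scaled to a common effective library size by TMM, a method that assumes most genes do not change. The libraries carried all 8 luminal prostate markers examined, while the basal keratin genes KRT5 and KRT14 were at 0 in every library. Both libraries numbered 1 stood apart, being at 0 for some genes that the other libraries held; setting those genes aside left 15238 of 16006 and the same counts of calls among the 32 genes.

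Replication genes were mostly lower after RUVBL1 siRNA. Of the 32 genes, 28 fell, 1 rose and 3 did not pass an edgeR adjusted p of 0.05, against 23.1% of the 16006 genes tested that fell and 19.1% that rose (42.2% called either way). The median log2 fold change was -0.26, and over all genes tested it was 0.01. Values ran from -0.63 for the flap endonuclease gene FEN1 to 0.15 for the thymidine kinase gene TK1. In 29 of the 32 genes every RUVBL1 siRNA library lay below every control library, which was so for 27.4% of all genes, and in 1 every RUVBL1 siRNA library lay above, which was so for 25.3%. Comparing libraries of the same number, 30 of 32 genes were lower with RUVBL1 siRNA in each pair taken alone. Among the 16006 genes tested, 7548, 7896 and 7937 were lower in pairs 1, 2 and 3. The 29 genes without overlap were lower in all 3 pairs, which follows from their lack of overlap. The falls were small, and the scaling of the libraries bears on them: with libraries scaled by their totals alone, all log2 fold changes moved up by about 0.10, and 21 of the 32 genes fell and 2 rose, where 14.4% of all genes fell and 31.1% rose. Scaled by library totals, the 32 genes together took 2584, 2514 and 2499 CPM in the RUVBL1 siRNA libraries and 2845, 2788 and 2769 in the control libraries. For comparison, all 6 MCM2 to MCM7 helicase genes fell under both scalings, with a median of -0.50 under TMM.

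**Figure D1:**
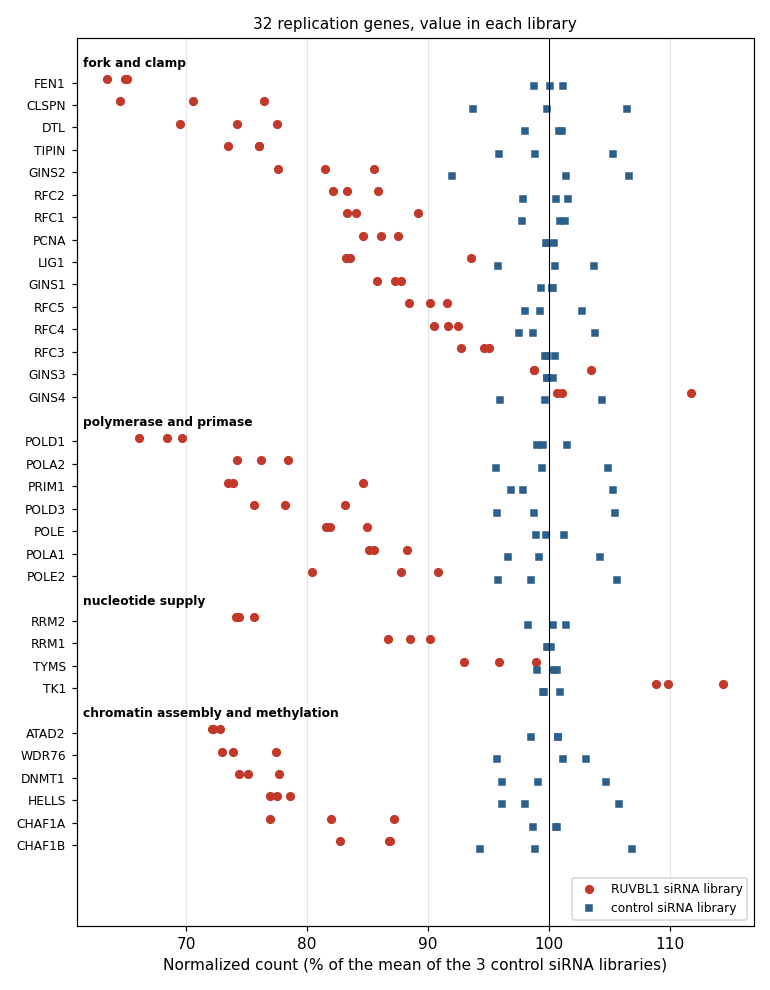
Normalized count of each of 32 replication genes in each library, as percent of the mean of the 3 control siRNA libraries (circles, RUVBL1 siRNA; squares, control siRNA), ordered by fold change within 4 roles. The groups overlap only for GINS3 and GINS4, and TK1 is the one gene with all RUVBL1 siRNA libraries above the control libraries.

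The first group works at the fork and on the clamp. Of its 15 genes, 13 fell and 0 rose, with a median log2 fold change of -0.22; with library totals alone 9 fell and GINS4 was the 1 that rose. FEN1 (ENSG00000168496.3), which cuts the flaps of Okazaki fragments, had 3057, 3051 and 2981 normalized counts in the RUVBL1 siRNA libraries, against 4752, 4641 and 4702 in the control libraries. The groups lay far apart relative to their spread, with FEN1 at 64.5% ± 0.895 (SD, n = 3) of its control level (log2 fold change -0.63, SE 0.0234, edgeR adjusted p = 1.38e-09). FEN1 shares exon positions with FADS2 on the same strand and with TMEM258 on the other, and the sources used here do not say how shared reads were assigned. FADS2 had 12085, 15830 and 14643 unscaled counts with RUVBL1 siRNA and 19529, 26966 and 22653 with control siRNA, and its part in the FEN1 value was not tested. LIG1, the ligase that seals the same fragments, had 965, 862 and 858 normalized counts with RUVBL1 siRNA and 1070.5, 989 and 1037 with control siRNA. It fell by 0.21 (edgeR adjusted p = 0.00656), a call that was lost with library totals alone (-0.11, edgeR adjusted p = 0.138).

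PCNA, the sliding clamp, had the highest level per transcript length at the fork, at 244 ± 8.02 TPM with RUVBL1 siRNA and 266 ± 5.16 TPM with control siRNA (SD, n = 3 each). TPM here is computed from the counts with GENCODE 29 lengths and is approximate. Its normalized counts were 5801, 5706 and 5606 with RUVBL1 siRNA and 6614, 6653 and 6613 with control siRNA, without overlap. PCNA fell by 0.22 on the log2 scale (SE 0.0176, edgeR adjusted p = 9.19e-07), and by 0.12 with library totals alone. Its processed pseudogenes PCNAP1, PCNAP3 and PCNAP4 held at most 1 count in any library. All 5 genes of RFC, the complex that loads PCNA, fell, though by small amounts: RFC2 by 0.26, RFC1 by 0.23, RFC5 by 0.15, RFC4 by 0.13 and RFC3 by 0.09. The direction of RFC3 was not stable to scaling, since its log2 fold change was 0.01 with library totals alone (edgeR adjusted p = 0.763), and RFC4 and RFC5 were then not called (-0.03 and -0.05). RFC4 shares exon positions with EIF4A2 on the opposite strand. EIF4A2 had 8028, 10805 and 9838 unscaled counts with RUVBL1 siRNA and 11787, 17024 and 14316 with control siRNA. Its part in the RFC4 value was not tested.

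DTL, which brings proteins on chromatin-bound PCNA to the CUL4 ubiquitin ligase, had 1006, 962 and 901 normalized counts with RUVBL1 siRNA and 1312, 1308 and 1272 with control siRNA. That is a log2 fold change of -0.44 (SE 0.043, edgeR adjusted p = 4.44e-06). CLSPN, the checkpoint adaptor claspin, was the least abundant of the 32 transcripts per length, at 4.93 ± 0.489 TPM with RUVBL1 siRNA and 6.54 ± 0.302 TPM with control siRNA (SD, n = 3 each). CLSPN had 378, 319 and 349 normalized counts with RUVBL1 siRNA and 463, 494 and 526 with control siRNA, a log2 fold change of -0.51 (SE 0.0775, edgeR adjusted p = 0.000193). Its spread was wider than that of most members: by replicate number its log2 change was -0.29, -0.63 and -0.59. TIPIN, which with TIMELESS and claspin steadies the fork, fell by 0.41 (edgeR adjusted p = 3.03e-05). TIMELESS, one of the related genes, fell by 0.12 (edgeR adjusted p = 0.0251), a call that was lost with library totals alone (-0.018) and without RUVBL1 siRNA replicate 2 or 3 or control replicate 1 (edgeR adjusted p = 0.106, 0.115 and 0.0651).

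Of the 4 GINS genes, 2 fell and 2 were not called. GINS1 fell by 0.20 (edgeR adjusted p = 0.000131) and GINS2 by 0.29 (edgeR adjusted p = 0.00148). GINS3 had 515, 492 and 492 normalized counts with RUVBL1 siRNA and 497, 497 and 499.8 with control siRNA, and the groups overlapped. Its log2 fold change had an SE of 0.0534 and an edgeR adjusted p of 0.992. GINS4 had 911, 907 and 1007 normalized counts with RUVBL1 siRNA and 940.1, 898 and 864 with control siRNA, again with overlap (log2 fold change 0.06, SE 0.0513, edgeR adjusted p = 0.356). With library totals alone GINS4 was called higher (0.16, edgeR adjusted p = 0.0228). GINS2 shares exon positions with GSE1 on the opposite strand, and the sources used here do not give the strand setting of the counts.

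All 7 polymerase and primase genes fell, with a median log2 fold change of -0.34. With library totals alone 5 fell and 0 rose. POLD1 (ENSG00000062822.8), the catalytic subunit of polymerase delta, had 1224, 1247 and 1183 normalized counts with RUVBL1 siRNA and 1782, 1816 and 1772 with control siRNA. No library came near the other group, at a log2 fold change of -0.56 (SE 0.0322, edgeR adjusted p = 4.79e-08). POLD3, an accessory subunit of the same polymerase, fell by 0.34 (edgeR adjusted p = 0.000315). POLE, the catalytic subunit of the leading-strand polymerase epsilon, had 1608, 1549 and 1543 normalized counts with RUVBL1 siRNA and 1916, 1888 and 1872 with control siRNA (log2 fold change -0.27, SE 0.0311, edgeR adjusted p = 1.7e-05).

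POLE2, which encodes the second subunit of polymerase epsilon, gave the weakest call of the list. It had 334, 306 and 345 normalized counts with RUVBL1 siRNA and 402, 375 and 365 with control siRNA (log2 fold change -0.21, edgeR adjusted p = 0.0405). The direction held in all 16 alternatives run, but the call was lost in 7, among them the DESeq2 Wald test (adjusted p = 0.0888), library totals alone (-0.11, edgeR adjusted p = 0.265), and without control replicate 1 (edgeR adjusted p = 0.124), control replicate 2 (0.0761), RUVBL1 siRNA replicate 1 (0.0604) or RUVBL1 siRNA replicate 2 (0.139). In the primase complex, POLA2 had 612, 596 and 630.2 normalized counts with RUVBL1 siRNA and 799, 843 and 768 with control siRNA, a log2 fold change of -0.39 (edgeR adjusted p = 6.19e-05). The primase subunit gene PRIM1 fell by 0.37 (edgeR adjusted p = 0.000667). POLA1, the catalytic subunit of polymerase alpha, had 749, 725 and 723 normalized counts with RUVBL1 siRNA and 819.6, 885 and 841 with control siRNA. It fell by 0.21 (edgeR adjusted p = 0.00281), and was not called with library totals alone (-0.11, edgeR adjusted p = 0.0699).

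The 4 nucleotide genes went different ways: 2 fell, 1 rose and 1 did not pass the threshold, under TMM and with library totals alone. RRM2 (ENSG00000171848.9), the small subunit of ribonucleotide reductase that sets the enzyme's activity in S phase, had 4334, 4323 and 4409 normalized counts with RUVBL1 siRNA, against 5730.3, 5916 and 5852 with control siRNA. This put RRM2 at 74.7% ± 0.798 (SD, n = 3) of its control level (log2 fold change -0.42, SE 0.0202, edgeR adjusted p = 9.63e-09). RRM1, the large subunit of the same enzyme, had 5595, 5495 and 5379 normalized counts with RUVBL1 siRNA and 6218, 6199 and 6204 with control siRNA. Its fall of 0.18 was less than that of RRM2 (SE 0.0186, edgeR adjusted p = 8.52e-06).

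TK1 (ENSG00000167900.7), the salvage enzyme that phosphorylates thymidine, was the only one of the 32 genes that rose under TMM; with library totals alone GINS4 did too. Its normalized counts were 8224, 7896 and 7825 with RUVBL1 siRNA and 7254, 7159 and 7157 with control siRNA. The groups did not overlap, with a log2 fold change of 0.15 (SE 0.0208, edgeR adjusted p = 8.41e-05), or of 0.25 with library totals alone. TK1 was also the most abundant of the 32 per transcript length, at 399.7 ± 17.4 TPM with RUVBL1 siRNA and 337 ± 9.56 TPM with control siRNA (SD, n = 3 each). TYMS, thymidylate synthase, makes the same nucleotide from dUMP. It had 3249, 3054 and 3149 normalized counts with RUVBL1 siRNA and 3306, 3294 and 3253 with control siRNA, all lower but by little. TYMS was not called (log2 fold change -0.06, SE 0.0286, edgeR adjusted p = 0.114), was called lower with the replicate number as a block (edgeR adjusted p = 0.037), and had a log2 fold change of 0.04 with library totals alone. Its exons overlap those of ENOSF1 and TYMSOS on the opposite strand.

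The chromatin genes fell together. All 6 matched genes of chromatin assembly and DNA methylation fell, with a median log2 fold change of -0.38, and with library totals alone 5 fell and 0 rose. ATAD2 (ENSG00000156802.8), a bromodomain ATPase on newly made chromatin, had 4057, 4026 and 4019 normalized counts with RUVBL1 siRNA and 5615, 5618 and 5491 with control siRNA. The tight replicates gave a log2 fold change of -0.47 with an SE of 0.0198 (edgeR adjusted p = 3.7e-09). DNMT1, which copies CpG methylation onto the new strand, had 3575, 3455 and 3420.2 normalized counts with RUVBL1 siRNA and 4821, 4560.0 and 4425 with control siRNA (log2 fold change -0.40, SE 0.032, edgeR adjusted p = 9.93e-07). WDR76, a WD-repeat protein, had 928, 874 and 885 normalized counts with RUVBL1 siRNA and 1147, 1213 and 1235 with control siRNA (log2 fold change -0.42, edgeR adjusted p = 5.11e-06). HELLS, a remodelling ATPase needed for DNA methylation, fell by 0.36 (edgeR adjusted p = 8.79e-06).

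Both large subunits of the histone chaperone CAF-1 fell. CHAF1A, the subunit that binds PCNA, fell by 0.29 (edgeR adjusted p = 0.00013). CHAF1B had 749, 713 and 749 normalized counts with RUVBL1 siRNA and 921, 853 and 813 with control siRNA, and fell by 0.23 (edgeR adjusted p = 0.00443). With library totals alone CHAF1B was not called (-0.13, edgeR adjusted p = 0.0847).

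**Figure D2:**
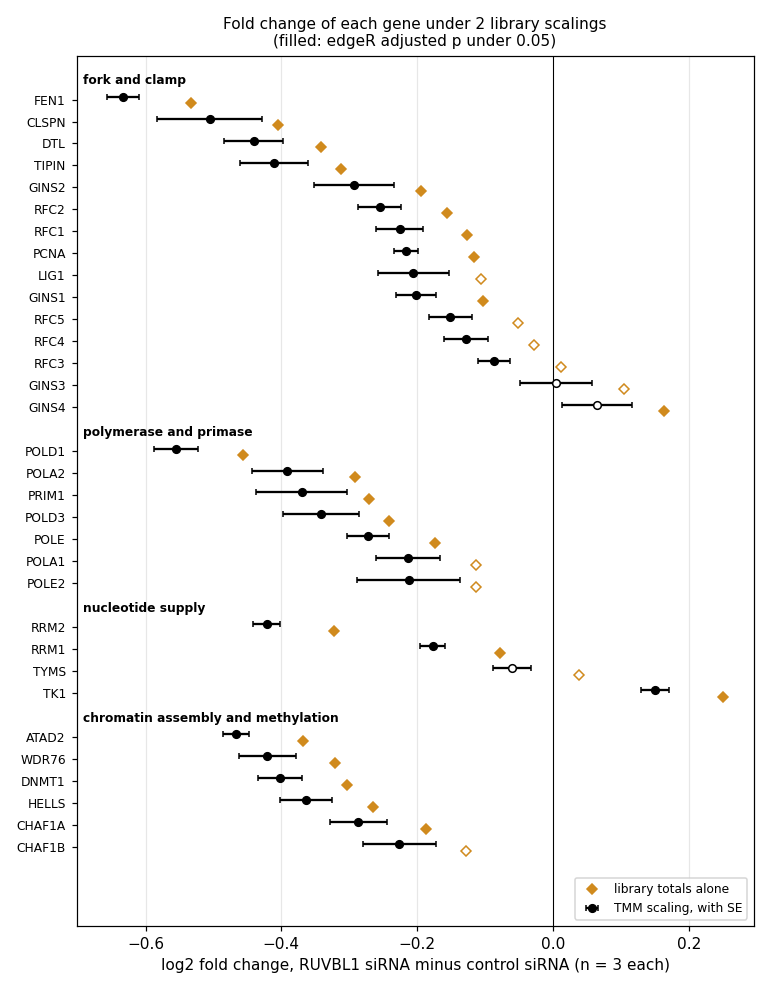
Log2 fold change of each gene, RUVBL1 siRNA minus control siRNA (n = 3 each), with TMM scaling (circles, bars are the SE) and with library totals alone (diamonds); filled symbols have an edgeR adjusted p under 0.05. Every gene lies about 0.10 higher with library totals alone, where 21 genes fell, and RFC3 and TYMS change sign.

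Because a change of library scaling moves every gene alike, 10 pairs of functionally linked members were also compared by the ratio of their counts within each library, which no scaling can alter. UHRF1 could not be matched, which left 9 pairs. In 7 of the 9 the ratios of the groups did not overlap, each with p = 0.1 in a two-sided exact permutation test. That is the smallest p that 3 against 3 libraries allow, and the adjusted p was 0.129 over the pairs, so none could pass the threshold. The share of pairs without overlap among all genes was not computed. Among single genes tested, every RUVBL1 siRNA library lay below every control library in 27.4% and above in 25.3%, so separation was common. The RRM2 to RRM1 log2 ratio was -0.37, -0.35 and -0.29 with RUVBL1 siRNA and -0.12, -0.067 and -0.084 with control siRNA, a difference of -0.24 (SE 0.0284). For TK1 to TYMS it was 1.34, 1.37 and 1.31 with RUVBL1 siRNA and 1.13, 1.12 and 1.14 with control siRNA, a difference of 0.21 (SE 0.0173). TK1 thus gained on TYMS, and RRM2 lost against RRM1, in all 3 RUVBL1 siRNA libraries.

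The widest shift was that of FEN1 to LIG1, at 1.66, 1.82 and 1.80 with RUVBL1 siRNA and 2.15, 2.23 and 2.18 with control siRNA (difference -0.43, SE 0.0549). The differences were -0.30 for GINS2 to GINS3 (SE 0.0775), 0.21 for POLD3 to POLD1 (SE 0.0461), -0.18 for POLA2 to POLA1 (SE 0.0409) and 0.14 for RFC3 to RFC1 (SE 0.0356). All 4 pairs set subunits of the same complex against each other. The ratio of CHAF1B to CHAF1A and that of POLE2 to POLE overlapped between groups, with differences of 0.063 (SE 0.0771) and 0.060 (SE 0.0617) and exact permutation p = 0.5 for each.

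**Figure D3:**
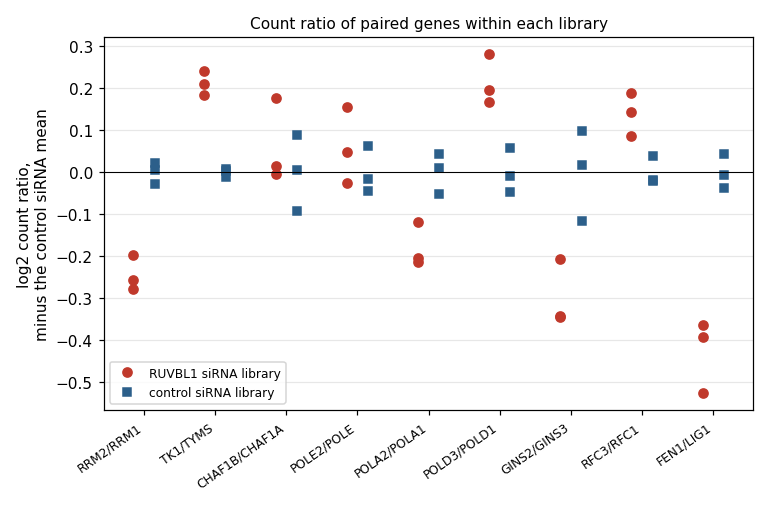
Log2 ratio of the counts of 2 genes within each library, minus the mean of the 3 control siRNA libraries, for 9 pairs (circles, RUVBL1 siRNA; squares, control siRNA). The groups are apart in 7 pairs and overlap for CHAF1B/CHAF1A and POLE2/POLE.

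A further 76 genes of the same processes, listed beside the 32, were also examined. Under TMM 32 fell, 12 rose and 32 were not called, with a median log2 fold change of -0.08; the 42.1% that fell and 15.8% that rose stand beside 23.1% and 19.1% of all genes tested. With library totals alone 21 of the 76 fell and 24 rose, where 14.4% and 31.1% of all genes did, so the share that rose was near that of all genes under both scalings. Of 28 other fork and checkpoint genes, 14 fell and 4 rose (8 and 6 with library totals alone). MCM10, which joins the helicase to polymerase alpha, had 704, 659.8 and 656 normalized counts with RUVBL1 siRNA and 1081, 1064 and 1099 with control siRNA, a log2 fold change of -0.68 (edgeR adjusted p = 1.17e-07). CDC45, the third part of the active helicase beside MCM and GINS, fell by 0.43. The polymerase anchor gene WDHD1 fell by 0.42 and the RecQ-family gene RECQL4 by 0.34. Those 4 genes also fell with library totals alone.

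RAD17, which loads the checkpoint clamp with the RFC small subunits, had 1103, 1014 and 1049.5 normalized counts with RUVBL1 siRNA and 858, 834 and 848 with control siRNA (log2 fold change 0.32, edgeR adjusted p = 6.17e-05). CHTF8, of the alternative loader that contains CHTF18 and DSCC1, rose by a log2 of 0.12, while CHTF18 and DSCC1 fell by 0.08 and 0.19; with library totals alone neither of these was called and CHTF18 was at 0.02. The CHTF8 call was lost without RUVBL1 siRNA replicate 1 (edgeR adjusted p = 0.0723) or control replicate 2 (0.0985), and that of CHTF18 without RUVBL1 siRNA replicate 2 (0.108) or 3 (0.0512) or control replicate 3 (0.0779). RPA3, the small subunit of the single-strand binding protein RPA, rose by 0.17, while RPA1 and RPA2 fell by 0.17 and 0.15. With library totals alone RPA3 and RPA1 kept their calls and RPA2 lost its own (edgeR adjusted p = 0.279). The RPA3 call was lost without any 1 of the RUVBL1 siRNA libraries (edgeR adjusted p = 0.0882, 0.0966 and 0.0814) and without control replicate 2 (0.0761).

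Of 8 other polymerase genes, 1 fell and 1 rose (0 and 2 with library totals alone). PRIM2, the large primase subunit, fell by 0.20 (edgeR adjusted p = 0.0172), and was not called with library totals alone (-0.096), nor without RUVBL1 siRNA replicate 1 or 2 or control replicate 2 or 3 (edgeR adjusted p = 0.0522, 0.0565, 0.0557 and 0.0512). The DESeq2 Wald test did not call PRIM2 either (adjusted p = 0.0535). POLD4, the smallest subunit of polymerase delta, had 1453, 1486 and 1456 normalized counts with RUVBL1 siRNA and 1246, 1243 and 1275 with control siRNA (log2 fold change 0.22, edgeR adjusted p = 8.87e-05). In polymerase delta the catalytic gene POLD1 thus fell and POLD4 rose under both scalings, while POLD2 was not called under either (-0.05 with TMM, edgeR adjusted p = 0.0999). In polymerase epsilon the small histone-fold subunit genes POLE3 and POLE4 were not called (-0.003 and -0.06).

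**Figure D4:**
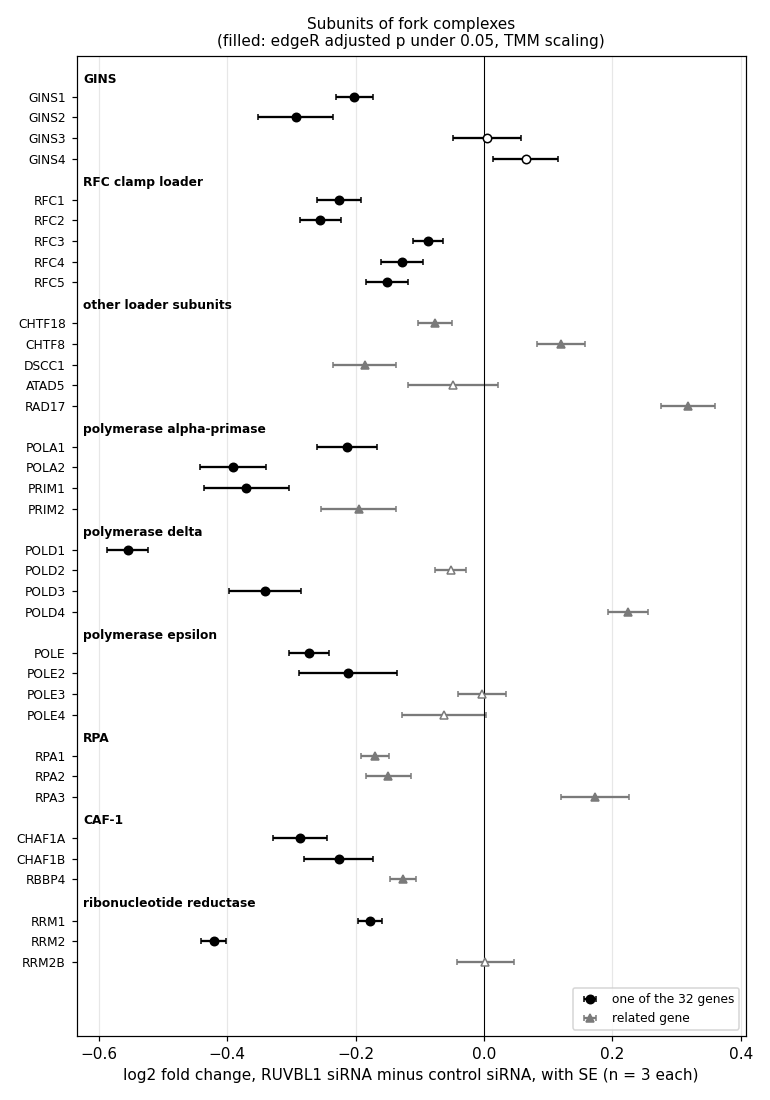
Log2 fold change with SE (RUVBL1 siRNA minus control siRNA, n = 3 each, TMM scaling) of the subunits of 9 sets of fork factors; circles are among the 32 genes, triangles are related genes, filled symbols have an edgeR adjusted p under 0.05. Within polymerase delta, RPA and the other loader subunits, genes lie on both sides of 0, while all RFC genes lie below it. GINS and ribonucleotide reductase also have genes above 0, none of them called.

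Of 15 other nucleotide genes, 5 fell and 4 rose (5 and 6 with library totals alone). DUT, which breaks down dUTP to dUMP and so feeds TYMS, had 1959, 2065 and 2077 normalized counts with RUVBL1 siRNA and 1514, 1600.5 and 1559 with control siRNA. It showed the largest rise among the 76 related genes (log2 fold change 0.38, SE 0.0351, edgeR adjusted p = 2.52e-06). The mitochondrial thymidine kinase gene TK2 rose by 0.23 and NME1 by 0.08. NME1 is a close copy of NME2, so its value is uncertain. CAD, which starts pyrimidine synthesis, fell by 0.63, the dCTP pyrophosphatase gene DCTPP1 by 0.46 and the GMP synthetase gene GMPS by 0.33.

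Of 19 other genes of chromatin assembly and methylation, 10 fell and 1 rose (7 and 7 with library totals alone). CDCA7, the partner of HELLS, fell by 0.66, the histone reader gene TONSL by 0.55, the histone acetyltransferase gene HAT1 by 0.41 and the FACT subunit gene SUPT16H by 0.40, all 4 also with library totals alone. The histone chaperone gene ASF1A had 1155, 1137 and 1141 normalized counts with RUVBL1 siRNA and 971, 979 and 998 with control siRNA (log2 fold change 0.22, edgeR adjusted p = 0.000242), whereas ASF1B, its proliferation-linked copy, was not called (0.01, edgeR adjusted p = 0.834; 0.11 and called higher with library totals alone). Among 6 genes of the ligase that DTL serves and of its targets, 2 fell and 2 rose (1 and 3 with library totals alone). CDKN1A, which encodes the CDK inhibitor p21, had 2118, 1825 and 1910.0 normalized counts with RUVBL1 siRNA and 3145, 3005 and 3077 with control siRNA (log2 fold change -0.66, edgeR adjusted p = 9.43e-06). The ligase target gene KMT5A rose by 0.17 and the scaffold gene CUL4B by 0.21, and the adaptor gene DDB1 fell by 0.15, a call that was lost with library totals alone.

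The promoters of the members were searched for motifs set beforehand. Promoters were taken from RefSeq on GRCh38.p14 as 300 bases per start, 250 before and 50 after it. Of the 32 genes, 28 had a window that was used here, in 33 windows in all. Windows were searched on both strands for the E2F octamers TTTCCCGC, TTTGGCGC, TTTCGCGC and TTTGCCGC, for the CCAAT box CCAAT, for the CHR element TTTGAA and for the GC box GGGCGG. An E2F octamer stood in 16 of 33 member windows (48.5%), against 3.31% of all 35116 windows and 5.03% of the 10690 windows with at least the members' median GC content of 66.0%. CCAAT stood in 54.5% of member windows and in 34.6% of all, the GC box in 72.7% and 45.0%, and TTTGAA in 3.03% and 15.2%. The 5.03% is not matched on GC content, since windows below 66.0% were left out there and no such cut was made among member windows. Shares of CCAAT, the GC box and TTTGAA were not set beside windows chosen by GC content, on which such shares can depend. Of 18 octamer matches in member windows, 3 overlapped a motif of another kind. The 2 matches in TIPIN, starting at -66 and -62 from the start site, overlapped each other, and only the nearer is printed in capitals. The octamer nearest the start of each of the 16 genes is printed here. Its letters recur from gene to gene because the search asked for them, and no open search for shared sequence was run. Each stretch is given 5′ to 3′ on the strand of the gene, with the octamer or its reverse complement in capitals.
CLSPN (chr1:35769966-35769993, minus strand): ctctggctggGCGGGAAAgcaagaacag
DTL (chr1:212035730-212035757, plus strand): gtgacgtcagTTTGGCGCggagtttggc
HELLS (chr10:94545770-94545797, plus strand): atgacaggatTTTCCCGCgaaggagaag
POLA2 (chr11:65261899-65261926, plus strand): tggctcccggTTTCGCGCatgcgtgcac
POLE (chr12:132687343-132687370, minus strand): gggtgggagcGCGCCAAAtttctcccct
RFC3 (chr13:33818084-33818111, plus strand): tttggagctcGCGGGAAAacttgtctct
POLE2 (chr14:49688202-49688229, minus strand): tgcggcggtgGCGCCAAAtcgcaaatat
TIPIN (chr15:66356730-66356757, minus strand): cacggatttgGCGCCAAAcgctgcgggc
GINS3 (chr16:58392456-58392483, plus strand): gtccccgggcGCGGGAAAcgagtttcaa
GINS2 (chr16:85688968-85688995, minus strand): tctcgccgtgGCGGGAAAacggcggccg
TYMS (chr18:657604-657631, plus strand): cgggacggccGCGGGAAAaggcgcgcgg
DNMT1 (chr19:10194938-10194965, minus strand): atcggtttccGCGCGAAAagccggggcg
LIG1 (chr19:48170441-48170468, minus strand): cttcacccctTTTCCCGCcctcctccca
PCNA (chr20:5126664-5126691, minus strand): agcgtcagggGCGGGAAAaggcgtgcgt
GINS1 (chr20:25407668-25407695, plus strand): gctttgttcgGCGCCAAAgcgcggagcg
POLA1 (chrX:24693771-24693798, plus strand): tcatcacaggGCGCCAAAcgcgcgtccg

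By role, an octamer stood in the windows of 9 of 14 fork and clamp genes, 4 of 6 polymerase and primase genes, 1 of 4 nucleotide genes and 2 of 4 chromatin genes. As a description without a test, the 16 genes with an octamer had a median log2 fold change of -0.24 (-0.51 to 0.0045), and the 12 without had one of -0.24 (-0.63 to 0.15). GINS3 and TYMS, which were not called, carry the same GCGGGAAA letters as PCNA, CLSPN and GINS2, which fell. A match to these letters is a description and not a site of binding.

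FEN1, which fell most, and RRM2 and TK1, which moved in opposite directions in the same supply line, had none of the 4 octamers. Their 300-base windows are printed 5′ to 3′ on the strand of the gene, with each CCAAT box or its reverse complement ATTGG in capitals; for a gene with several windows, the one with most such motifs was taken.
RRM2 (chr2:10122489-10122788, plus strand): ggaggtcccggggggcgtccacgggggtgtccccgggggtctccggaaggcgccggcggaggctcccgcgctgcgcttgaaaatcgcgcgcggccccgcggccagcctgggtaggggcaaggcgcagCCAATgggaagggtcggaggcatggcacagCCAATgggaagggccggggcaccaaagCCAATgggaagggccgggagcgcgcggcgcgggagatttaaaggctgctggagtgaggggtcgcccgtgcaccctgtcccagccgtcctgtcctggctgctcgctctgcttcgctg
TK1 (chr17:78187003-78187302, minus strand): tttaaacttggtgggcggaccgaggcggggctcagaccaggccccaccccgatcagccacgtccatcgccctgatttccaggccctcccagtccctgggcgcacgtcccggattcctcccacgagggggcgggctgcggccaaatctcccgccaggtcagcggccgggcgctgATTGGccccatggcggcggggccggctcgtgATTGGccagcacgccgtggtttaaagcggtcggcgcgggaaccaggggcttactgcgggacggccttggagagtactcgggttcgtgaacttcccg
FEN1 (chr11:61792661-61792960, plus strand): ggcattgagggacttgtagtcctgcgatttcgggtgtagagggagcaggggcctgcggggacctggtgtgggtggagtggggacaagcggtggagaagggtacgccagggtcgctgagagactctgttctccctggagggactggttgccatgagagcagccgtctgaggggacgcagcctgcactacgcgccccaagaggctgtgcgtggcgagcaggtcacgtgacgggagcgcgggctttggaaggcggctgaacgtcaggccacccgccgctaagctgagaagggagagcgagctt

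RRM2 held 3 CCAAT boxes and TK1 held 2, so that this box was present in the gene that fell and in the one that rose. FEN1 held none. TK1 also held 2 GC boxes, while RRM2 and FEN1 had 0 in these windows.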

How the data were processed

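For each library the authors deposited estimated counts of genes under versioned human Ensembl identifiers; the counting program, annotation and human genome build are not named in any header or label. The submitters' processing notes list Bowtie 0.12.2 and the mouse builds mm8 and mm9, which do not match the human identifiers. Rounding the estimated counts to whole numbers altered no library total by more than 0.000222%. Symbols were taken from a separate list of gene names by Ensembl identifier, and lengths and exon positions from GENCODE 29.

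Groups were compared with edgeR 4.0.16 in R 4.3.3 (TMM scaling, filterByExpr, quasi-likelihood test, Benjamini-Hochberg adjustment over 16006 genes, threshold 0.05). A log2 fold change is RUVBL1 siRNA minus control siRNA, and its SE was derived from the F statistic. Normalized counts refer to the mean effective library size of 26348516. The fit was also run on simulated data, where edgeR recovered 20 of 50 genes changed 1.25-fold and 40 of 50 changed 1.5-fold. Of its 165 calls there, 13 were false. The simulation held no replicate structure and changed far fewer genes than were called in the real libraries. Alternatives were DESeq2 1.42.0, limma-voom (limma 3.58.1), DESeq2 size factors, library totals alone, other filters, the replicate number as a block, and fits without given libraries or genes. The fit behind the reported values and the permutation tests are unpaired. Same-numbered libraries deviated together (correlations 0.939, 0.819 and 0.823, or 0.423, 0.192 and 0.22 without genes at 0 in both libraries numbered 1). Libraries 2 and 3 of opposite groups also correlated (0.807 and 0.817, or 0.137 and 0.176 without those genes). The block is therefore given where it changes a call among the 32 genes. Among the 76 related genes it gave 37 lower and 12 higher, against 32 and 12 without it. Depth ranged from 18985542 to 36054489 counts per library.

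All members are accounted for. Values per library are given, in each role, for the 3 smallest p-values, for risers, for genes that did not pass, and for the highest and lowest level per length; related genes are named for the 4 smallest p-values past the threshold in each list and for risers, and other subunits of the same complexes were named after their values were seen. A related gene that this rule names is not reported here. The members and lists were chosen with earlier results of these data known.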

Additional observations from a re-analysis of the deposited data

How the results depend on the processing

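Scaling by library totals alone changed most. It left 21 of the 32 genes lower, gave 2 higher, 1 of them at the fork and clamp, gave 21 lower and 24 higher among the related genes, and gave 2297 lower and 4981 higher among all genes tested; RFC3 then stood at 0.012 and TYMS at 0.039. Across the other 15 alternatives between 27 and 29 of the 32 genes fell and 1 rose, and TK1 and 21 fallen genes kept their calls in all 16. Leaving out 1 library gave 27 or 28 lower. GINS3, near 0, changed sign without the low-count filter (-0.015) and with replicates 2 and 3 only (-0.019), and ran from -0.019 to 0.015 when 1 library was left out. With the replicate block 29 genes fell and 1 rose; TYMS gained a call (-0.063), as it did without the low-count filter, with replicates 2 and 3 only and without RUVBL1 siRNA replicate 1, and no other call among the 32 changed. The cause of these shifts was not tested. A gene missing the threshold may still differ by a small amount at this depth and with 3 libraries per group. The signs of the 9 pair ratios were the same in every alternative run.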

Other observations

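Of the 15 other nucleotide genes, 5 fell, and 4 of these 5 act in making UMP or GMP; they were grouped after their values were seen, and other genes of these routes were not examined. CAD, which begins pyrimidine synthesis, had 1090, 1115 and 1158 normalized counts with RUVBL1 siRNA and 1694, 1793 and 1724 with control siRNA, and UMPS, which completes UMP, had 1249, 1233 and 1209 with RUVBL1 siRNA and 1537, 1504 and 1593 with control siRNA. The log2 fold changes were -0.63 for CAD (edgeR adjusted p = 3.57e-08) and -0.33 for UMPS (edgeR adjusted p = 6.76e-06). On the purine side, GMPS fell by 0.33 and IMPDH2, which makes the substrate of GMPS, fell by 0.22 (edgeR adjusted p = 6.37e-06). All 4 genes also fell with library totals alone.

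The subunit genes of RNase H2, which removes ribonucleotides from DNA, gave 1 fall, 1 rise and 1 gene not called under TMM. RNASEH2A, the catalytic subunit, had 2752, 2747 and 2725 normalized counts with RUVBL1 siRNA and 2982, 3020.3 and 3032 with control siRNA (log2 fold change -0.14, edgeR adjusted p = 0.00103), a call that was lost with library totals alone (-0.036). RNASEH2C had 1676, 1658 and 1639 normalized counts with RUVBL1 siRNA and 1567, 1519 and 1459 with control siRNA (0.13, edgeR adjusted p = 0.00792), a call that was lost without control replicate 3 (edgeR adjusted p = 0.0552). RNASEH2B was higher in every RUVBL1 siRNA library but was not called under TMM (0.13, edgeR adjusted p = 0.0617). With library totals alone RNASEH2B was called higher (0.23, edgeR adjusted p = 0.0029), and so was RNASEH2C (0.23, edgeR adjusted p = 0.000259).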
